A study of Mus musculus with 18 samples.

Results

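The genes described here are the mouse Zfp genes, those whose symbol is Zfp followed by digits alone, with Zfp36, which encodes an RNA-binding protein of another kind, left out. Members were chosen by their signal levels: a gene was included if at least 4 of the 18 arrays gave it a probe set signal above that array's median, and where several probe sets passed, the one with the highest mean of log2(signal + 16) stood for the gene. By this rule 252 of the 304 Zfp symbols on the array were members, among 11733 named genes that passed the same filter. The study hybridised total RNA of mouse immune cells to Affymetrix arrays, with 6 arrays at 4 h and 6 at 1 h after treatment with a cell wall extract and 6 control arrays at 0 h. According to the design text the animals were knockout mice. The labels give neither the deleted gene nor a strain, sex, age, cell type or dose for any array. Whether all arrays share a single genotype is therefore not known, and no wild type group is identified. The titles also carry array codes in 3 ranges (44 to 54, 32 to 37 and 12 to 22). Every range holds 2 arrays per time. What the codes stand for is not given. Nothing in the labels says that arrays came from separate animals or cultures, so the p-values below measure the spread between arrays, which may be technical, and the number of arrays limits the precision.

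Most Zfp proteins carry tandem C2H2 zinc fingers, small folds held by a zinc ion that each read a few bases of DNA. Many also carry a KRAB domain, which recruits TRIM28 and through it the histone methyltransferase SETDB1, and such proteins are best known for silencing transposable elements. The genes often lie in tandem clusters that arose by duplication. A minority of Zfp symbols belong to proteins with other roles, in the spindle, on the ribosome or in ubiquitin transfer.

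The members were mostly dim genes. The mean signal per member ran between 63.2 and 6314 with a median of 254, against a median of 606 over all named genes. On all 18 arrays 156 members lay above the array median. The 4 members that passed on exactly 4 arrays, Zfp37, Zfp526, Zfp708 and Zfp827, had mean signals of 64.3 to 70.0, and the 6 symbols that missed the limit by 1 array, Zfp14, Zfp30, Zfp428, Zfp454, Zfp521 and Zfp982, had mean signals of 42.5 to 65.7. The 52 symbols that were not kept had mean signals of 8.56 to 65.7. A member that is above the median at 1 time alone had to differ between times, and this applied to Zfp811, which lay above the median on 6 of 6 arrays at 4 h and on 0 of 6 at 0 h and at 1 h. Another 2 members, Zfp395 among them, had no 4 h array above the median, so that a difference at 4 h was fixed in part by the filter. The table holds no flag for background, so a low signal may be a bound and not a level.

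The promoters of 5 members with large or early differences are shown first, because promoter sequence is a feature that the choice of members did not use. They run from 250 bases before to 50 bases after the start of the gene, 5′ to 3′ on the gene's strand, and are taken from RefSeq for the build GRCm38.p6. Zfp688 and Zfp467 had the largest and a further large fall at 4 h, Zfp811 the largest above 0, and Zfp472 and Zfp157 fell by 1 h. They lie at chr7:127421985-127422284 on the minus strand for Zfp688, chr6:48445041-48445340 on the minus strand for Zfp467, chr17:32809882-32810181 on the minus strand for Zfp811, chr5:138441226-138441525 on the plus strand for Zfp157 and chr17:32965581-32965880 on the plus strand for Zfp472. Capitals mark an ETS motif in Zfp688, a GC box in Zfp467 and a YY1 motif on the opposite strand in Zfp157.
Zfp688: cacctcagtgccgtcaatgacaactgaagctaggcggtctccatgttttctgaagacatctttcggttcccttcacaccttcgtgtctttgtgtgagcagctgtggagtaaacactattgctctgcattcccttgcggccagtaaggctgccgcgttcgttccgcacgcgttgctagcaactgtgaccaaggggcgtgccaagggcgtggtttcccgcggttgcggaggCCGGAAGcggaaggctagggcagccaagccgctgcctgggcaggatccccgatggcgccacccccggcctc
Zfp467: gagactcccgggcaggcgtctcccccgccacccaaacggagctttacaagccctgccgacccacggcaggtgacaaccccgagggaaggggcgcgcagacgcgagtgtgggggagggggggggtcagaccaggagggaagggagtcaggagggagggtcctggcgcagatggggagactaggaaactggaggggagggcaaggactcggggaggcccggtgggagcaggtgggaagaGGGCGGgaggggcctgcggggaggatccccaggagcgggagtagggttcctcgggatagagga
Zfp811: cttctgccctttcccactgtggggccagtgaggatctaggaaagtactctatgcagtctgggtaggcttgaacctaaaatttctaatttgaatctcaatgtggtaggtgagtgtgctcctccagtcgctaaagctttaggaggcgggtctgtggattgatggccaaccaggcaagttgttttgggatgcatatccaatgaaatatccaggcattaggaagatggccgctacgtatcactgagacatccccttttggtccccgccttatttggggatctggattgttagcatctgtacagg
Zfp157: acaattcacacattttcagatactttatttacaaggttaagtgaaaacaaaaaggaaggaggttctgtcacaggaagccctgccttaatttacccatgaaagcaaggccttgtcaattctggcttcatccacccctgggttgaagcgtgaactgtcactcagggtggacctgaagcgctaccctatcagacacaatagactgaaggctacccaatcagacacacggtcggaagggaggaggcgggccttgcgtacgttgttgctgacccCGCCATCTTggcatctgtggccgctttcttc
Zfp472: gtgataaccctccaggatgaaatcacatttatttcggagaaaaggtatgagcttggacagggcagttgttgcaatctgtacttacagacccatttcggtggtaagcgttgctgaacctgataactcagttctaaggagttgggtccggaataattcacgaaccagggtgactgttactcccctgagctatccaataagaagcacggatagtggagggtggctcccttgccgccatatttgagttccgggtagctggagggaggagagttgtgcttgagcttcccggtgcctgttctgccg
The Zfp688 and Zfp467 windows hold 22 and 18 CpG dinucleotides, and those of Zfp811, Zfp157 and Zfp472 hold 5, 9 and 10.

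RefSeq promoters were matched for 208 members, with 254 promoters in all, and were set beside 32851 promoters of 27025 genes. That background was not limited to the 11733 named genes that passed the signal filter, as the members did. How far the filter accounts for the differences below was not tested. The median number of CpG dinucleotides per 300 bases was 16 in the members and 7 in all promoters, and 74.4% of the members' promoters held at least 10, against 43.5% of all. Each motif was searched by its letters on both strands. The GC box GGGCGG stood in 49.2% of the members' promoters and 35.7% of all, the ETS motif CCGGAAG in 20.9% and 8.86%, the cyclic AMP response element TGACGTCA in 3.94% and 1.79%, and the YY1 motif AAGATGGCG in 2.76% and 1.4%. The TATA motif TATAAA was found in 6.69% of the members' promoters and 13.6% of all, and an NF-kB motif (GGG, any 2 bases, then TTTCC) in 2.36% and 1.63%. No motif contains the letters of another. Among the 88 members lower at 4 h by the test described below, 41.7% of 103 promoters held the GC box, 19.4% the ETS motif and 0.971% the NF-kB motif, with a median of 13 CpG dinucleotides. Among 10 members higher at 4 h, 76.9% of 13 promoters held the GC box and 15.4% the ETS motif, with a median of 21 CpG, and among 110 members called neither way 52.2% of 138 promoters held the GC box and 22.5% the ETS motif, with a median of 17 CpG. A match of letters is a description and not a binding site.

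The deposited signals had nearly the same trimmed mean on every array, between 496.3 and 497.6 with the lowest and highest 2% and the control probe sets left out. The array median was nonetheless 74.5 to 87.3 at 4 h, against 85.9 to 107.9 at 0 h and 1 h, so each comparison is also given after quantile scaling, which gives every array the same distribution. Differences below are of log2(signal + 16), which understates the change of dim genes. A member is called higher or lower where its adjusted p in limma, fitted over all 18 arrays and adjusted over 25804 probe sets by Benjamini-Hochberg, was under 0.05. In total RNA of a cell population, fewer cells of a type and less RNA per cell cannot be told apart. Of the macrophage markers, 12 of 12 were kept, with a summed signal of 198800 to 244600 at 4 h and 201900 to 226800 at 0 h, while few lymphoid or erythroid markers passed the filter, with 1 of 7 kept for T cells, 2 of 6 for B cells, 2 of 5 for NK cells and 1 of 5 for erythroid cells. For dendritic cells 3 of 6 were kept, with sums of 507.5 to 815.9 at 4 h and 268.9 to 364.3 at 0 h. Of these 3, 1 was called higher at 4 h against 0 h and 0 lower. Of the 12 macrophage markers 3 were higher and 2 lower. Over named genes 11.5% were higher and 23.9% lower. For neutrophils 8 of 12 were kept, with sums of 1857 to 9527 at 4 h and 989.7 to 4769 at 0 h. The part of these cells in the members' differences was not tested. The 3 times share their arrays between comparisons, as 0 h, 1 h and 4 h each stand in 2 of the 3.

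At 4 h against 0 h the Zfp genes were lower as a group. Of 252 members 108 were lower (42.9%) and 13 were higher (5.16%), against a background of 23.9% lower and 11.5% higher over named genes and 23.1% and 9.93% over all probe sets. The median difference was -0.42 over members and -0.19 over named genes, and 83.3% of members had a difference below 0, against 65.4% of named genes. After quantile scaling 71 members were lower (28.2%) and 16 higher (6.35%), against 17.4% and 12.8% of named genes, with a median of -0.22 over members and -0.07 over named genes. Thus the gap between the members' median and that of named genes was -0.23 as deposited and -0.14 after quantile scaling. Of the 108 members lower as deposited, 70 were also lower after quantile scaling, and the 13 higher members were all higher under both. No member was called in opposite directions under the 2 scalings.

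The members' shift was visible on single arrays. The median log2 value over members was 8.22 to 8.45 on the arrays at 0 h, 8.08 to 8.19 at 1 h and 7.63 to 7.86 at 4 h, so that every array at 4 h lay below every array at 0 h and 1 h. The same median over all named genes was 9.20 to 9.30 at 0 h, 9.22 to 9.29 at 1 h and 8.94 to 9.14 at 4 h. After quantile scaling the members' medians were 8.14 to 8.28 at 0 h, 7.98 to 8.16 at 1 h and 7.81 to 8.05 at 4 h. The groups at 1 h and 4 h then overlapped, and the 4 h arrays still lay below all 0 h arrays. These values are plotted by array.

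**Figure D1:**
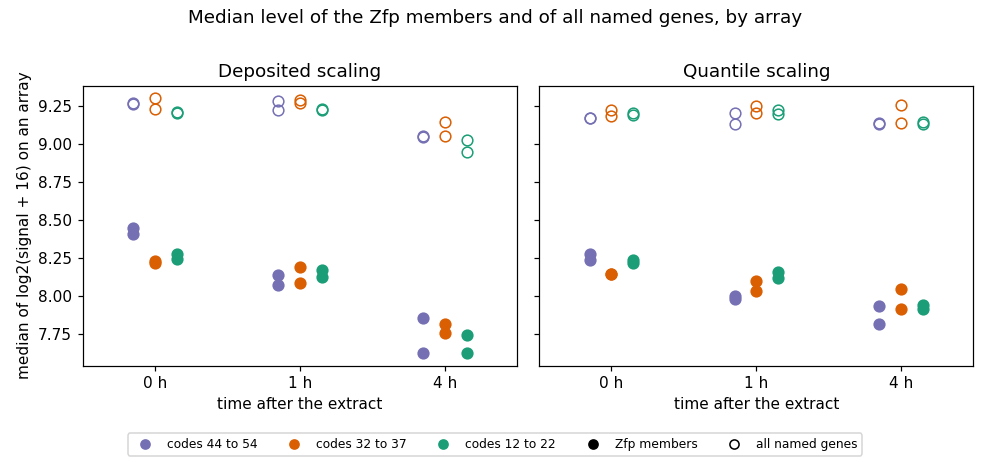
Median of log2(signal + 16) on each of 18 arrays over the 252 Zfp members (filled points) and over all named genes (open points), by time and coloured by range of array codes, as deposited and after quantile scaling. The members' medians are 7.63 to 7.86 at 4 h and 8.22 to 8.45 at 0 h as deposited, and 7.81 to 8.05 and 8.14 to 8.28 after quantile scaling.

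The 108 lower members had differences of -2.63 to -0.43 with a median of -0.88, and 40 of them were lower by at least 2-fold. In 63 of the 108, every array at 4 h lay below every array at 0 h. Neither the 2-fold count nor this one was made over named genes. The 108 were called lower on these same arrays, so both counts are a description. The difference was below 0 within all 3 code ranges for 107 of the 108. Over all members this held for 159 (63.1%), against 45.2% of named genes. Where a lower member had further kept probe sets, as 35 did, 54 of these 56 probe sets were below 0 and 39 were lower past the threshold, while 0 were higher. They were read on the same arrays, and further probe sets of other genes were not counted, so this too is a description.

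The share of lower members was set against named genes of similar level. When named genes were split into 4 equal classes by mean log2 value, 96 members fell in the dimmest class, where 41.7% of members and 15.6% of named genes were lower at 4 h, and 102 fell in the second, where 51% of members and 33.6% of named genes were lower. In the third, with 40 members, 32.5% of members and 27.5% of named genes were lower. In the brightest class, with 14 members, 21.4% of members and 18.7% of named genes were lower. After quantile scaling the shares lower were 24%, 33.3%, 25% and 28.6% of members from the dimmest to the brightest class, against 7.26%, 18.6%, 20% and 23.9% of named genes. The shares higher as deposited were 1.04%, 1.96%, 22.5% and 7.14% of members in that order, against 5.01%, 7.6%, 14.1% and 19.2% of named genes. The classes were not compared by a test.

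**Figure D2:**
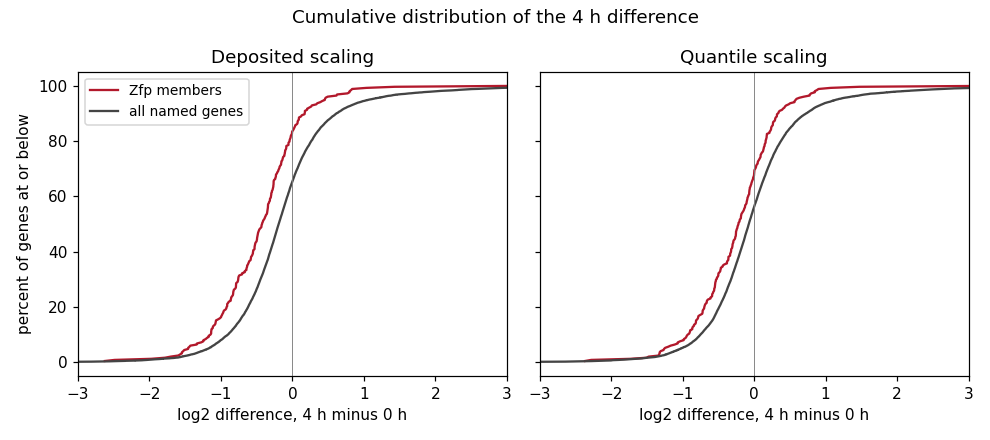
Percent of genes with a log2 difference of 4 h minus 0 h at or below the value on the horizontal axis, for the 252 Zfp members and all named genes, as deposited (left) and after quantile scaling (right). At 0 the members' curve stands at 83.3% and that of named genes at 65.4% as deposited, and at 68.3% and 56.1% after quantile scaling.

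The largest fall was that of Zfp688, with a lowest, median and highest signal of 7.36, 24.0 and 163.5 at 4 h, against 233.4, 301.9 and 360.8 at 0 h. Every 4 h array lay below every 0 h array. The difference was -2.63 ± 0.46 on the log2 scale (SE, n = 6 each, adjusted p = 3.23e-04 in limma). Zfp395, whose human counterpart was described as a protein that binds a regulatory region of the huntingtin gene, had 3.11, 30.7 and 60.6 at 4 h, against 136.1, 228.7 and 313.7 at 0 h. The difference was -2.49 ± 0.37. Zfp395 lay above the array median on 0 of 6 arrays at 4 h and passed the filter through 0 h and 1 h, so its differences from 4 h are a description. Zfp467, which in mouse marrow stromal cells favours fat over bone formation, had 59.1, 73.5 and 87.0 at 4 h, against 239.9, 337.7 and 449.9 at 0 h. Its groups were far apart for their spread, and it fell by 1.98 ± 0.16 (adjusted p = 9.62e-08 in limma).

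The next falls had the same order of arrays. Zfp810 had 69.8, 104.4 and 143.0 at 4 h, against 238.3, 375.4 and 695.5 at 0 h, and fell by 1.78 ± 0.26. Zfp704 had 113.5, 167.3 and 209.8 at 4 h, against 258.0, 718.6 and 976.9 at 0 h, and fell by 1.70 ± 0.34. Zfp61 had 36.97, 76.3 and 96.6 at 4 h, against 200.8, 234.8 and 286.6 at 0 h, and fell by 1.60 ± 0.19. In these genes the groups at 4 h and 0 h did not overlap. Zfp157 had 69.1, 156.1 and 200 at 4 h, against 428.3, 439.2 and 592.0 at 0 h, and fell by 1.57 ± 0.20. Zfp763 had 76.8, 122.0 and 141.0 at 4 h, against 324.0, 365.0 and 420.2 at 0 h, and fell by 1.55 ± 0.16. The adjusted p of these 5 genes in limma lay between 1.92e-06 for Zfp763 and 8.2e-04 for Zfp704. Leaving Zfp395 aside, the other 7 falls stayed past the threshold in each of 28 alternative fits, and after quantile scaling they ranged between -2.37 for Zfp688 and -1.27 for Zfp763.

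Among the 13 higher members Zfp811 stood apart. Its lowest, median and highest signals were 6.78, 19.4 and 51.3 at 0 h, 12.6, 22.3 and 65.7 at 1 h and 82.5, 460.4 and 1348 at 4 h. Every 4 h array lay above every other array, and the difference of 4 h minus 0 h was 3.44 ± 0.53. Since Zfp811 passed the filter through its 4 h arrays alone, this difference is a description, and 12 other members were higher.

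Zfp800, whose human counterpart restrains the formation of hormone-secreting gut cells, had 947.5, 1612 and 2218 at 4 h, against 375.1, 600.6 and 682.6 at 0 h. All its 4 h arrays lay above all 0 h arrays, and it rose by 1.43 ± 0.20 (adjusted p = 3.2e-05 in limma). Zfp263, whose human counterpart carries a SCAN and a KRAB domain, had 5594, 6372 and 8547 at 4 h, against 1905, 3717 and 4192 at 0 h, and rose by 1.03 ± 0.30 (adjusted p = 0.0125 in limma). Its representative probe set is of a kind that can bind transcripts of more than 1 gene. Zfp131, a zinc finger protein with a BTB domain, had 1537, 1682 and 2327 at 4 h, against 890.1, 995.5 and 1152 at 0 h, and rose by 0.80 ± 0.18 (adjusted p = 0.00204 in limma). Zfp655 had 1061, 1794 and 2221 at 4 h, against 793.9, 996.3 and 1057 at 0 h, and rose by 0.77 ± 0.16 (adjusted p = 0.00108 in limma). In none of these 4 genes did the groups overlap.

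Zfp703 and Zfp719 rose with groups that overlapped. Zfp703, an atypical zinc finger corepressor amplified in a class of human breast tumours, had 709.1, 1186 and 1806 at 4 h, against 512.9, 723.1 and 886.6 at 0 h, and rose by 0.82 ± 0.24 (adjusted p = 0.0126 in limma). Zfp275 had 1005, 1283 and 1607 at 4 h, against 542.2, 658.4 and 994.3 at 0 h, and rose by 0.80 ± 0.24 (adjusted p = 0.0165 in limma). Its 4 h arrays lay above its 0 h arrays by a small gap. Zfp719 had 244.4, 454.3 and 537.8 at 4 h, against 172.8, 228.5 and 285.3 at 0 h, and rose by 0.83 ± 0.30 (adjusted p = 0.0371 in limma). The call on Zfp719 was lost in 9 of 28 alternative fits, 7 of which left out 1 array: 4 h replicates 1, 3, 5 or 6 (adjusted p = 0.0647, 0.0633, 0.0697 and 0.0765 in limma) or 0 h replicates 2, 3 or 6 (adjusted p = 0.0644, 0.0676 and 0.0757 in limma). The other 5 higher members were Zfp598, which encodes a ubiquitin ligase that senses collided ribosomes, Zfp438, Zfp513, Zfp407 and Zfp639, with differences of 0.62, 0.49, 0.46, 0.45 and 0.39.

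**Figure D3:**
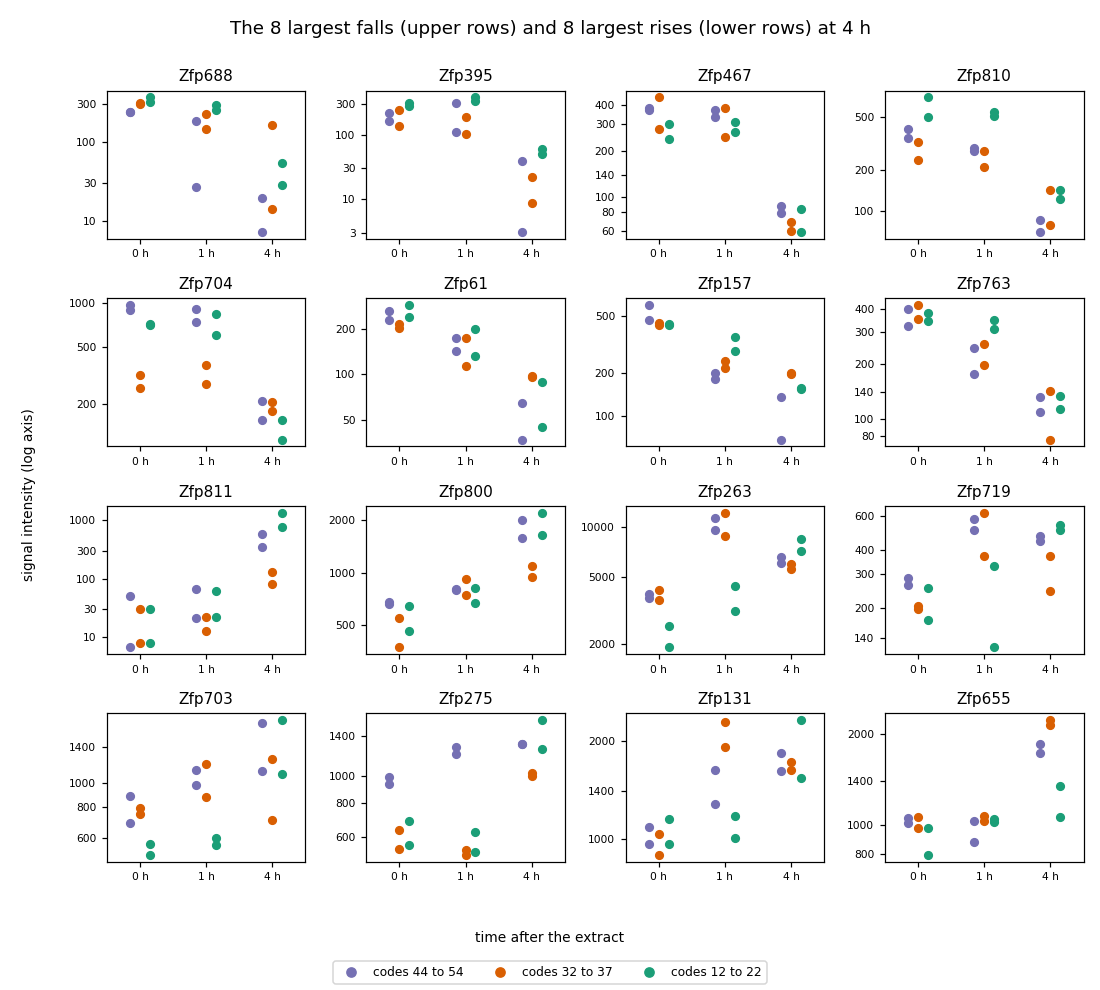
Signal on each of 18 arrays (log axes, 1 panel per gene) by time for the 8 members with the largest falls (upper rows) and the 8 with the largest rises (lower rows) at 4 h against 0 h, coloured by range of array codes. Zfp688 lies at 7.36 to 163.5 at 4 h and 233.4 to 360.8 at 0 h, and Zfp811 at 82.5 to 1348 at 4 h and 6.78 to 51.3 at 0 h.

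Of the 3 brightest members, Zfp263 rose at 4 h and the other two were not called. Zfp622, whose yeast counterpart acts in maturation of the large ribosomal subunit, had 4129, 5999 and 7836 at 4 h, against 5607, 6064 and 7452 at 0 h, a difference of -0.11 ± 0.16 (adjusted p = 0.64 in limma) with overlapping groups. Zfp207, which encodes a protein that brings the checkpoint protein Bub3 to kinetochores, had 1860, 3592 and 4218 at 4 h, against 3525, 3719 and 4049 at 0 h, a difference of -0.16 ± 0.20 (adjusted p = 0.583 in limma). A pair of further probe sets of Zfp207 fell by 0.65 and 0.89 (adjusted p = 0.0199 and 0.0201 in limma), so its probe sets did not give the same result, and over the mean of its probe sets the difference was -0.53 (adjusted p = 0.00817 in limma).

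At 1 h against 0 h few members had moved past the threshold. The 2 lower members (0.794%) stood against a background of 0.0341% of named genes and 0.14% of probe sets. The 0 higher members stood against 0.614% of named genes. An unadjusted p under 0.05 in limma was found for 39 of 252 members, against 603 of 11733 named genes and 1765 of 25804 probe sets. The median difference was -0.12 over members and -0.02 over named genes, and 69.4% of members were below 0, against 55.3% of named genes. After quantile scaling 1 member was lower and 0 were higher, against 0.0341% and 0.682% of named genes, and the medians were -0.10 and -0.02. Zfp472 had 255.6, 400.8 and 659.1 at 1 h, against 711.0, 752.0 and 956.8 at 0 h, with no overlap, and fell by 0.90 ± 0.20 (adjusted p = 0.0354 in limma). Zfp157 had 180.3, 229.6 and 352.9 at 1 h, against 428.3 to 592.0 at 0 h, also with no overlap, and fell by 0.90 ± 0.20 (adjusted p = 0.046 in limma). Leaving out any 1 of the 0 h arrays or of 1 h replicates 1 to 4 ended the call for Zfp472, with adjusted p in limma of 0.0593 to 0.103. For Zfp157 any 1 of 15 arrays did so, namely all 0 h arrays, 1 h replicates 1 to 5 and 4 h replicates 1, 4, 5 and 6, with adjusted p in limma of 0.0511 to 0.137, and quantile scaling gave Zfp157 an adjusted p of 0.0584 in limma. These counts use 1 probe set per gene. A further probe set of Zfp128, named after its values were seen, had a difference of -0.97 at 1 h (adjusted p = 0.00673 in limma).

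With the code range as a block, 3 members were lower and 1 higher at 1 h, against 0.0852% and 0.938% of named genes. The higher member was Zfp263, with 3152, 9290 and 12270 at 1 h, against 1905, 3717 and 4192 at 0 h. Its difference of 1.20 had an adjusted p of 0.0235 in limma with the block and 0.0774 without it, and the groups overlapped as the arrays of codes 12 to 22 were lower at both times. The third lower member with the block was Zfp267, named after its values were seen, at -0.66 (adjusted p = 0.0357 in limma with the block and 0.0771 without it). For the 4 h comparison the block gave 127 lower and 15 higher members, against 31.9% and 14.4% of named genes, and at 4 h against 1 h it gave 82 lower and 8 higher, against 26.6% and 12.3%.

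At 4 h against 1 h 66 members were lower (26.2%) and 6 higher (2.38%), against 18.9% and 9.03% of named genes, with medians of -0.29 over members and -0.17 over named genes. After quantile scaling the counts were 40 (15.9%) and 12 (4.76%), against 12.8% and 9.67%, and the medians were -0.08 over members and -0.06 over named genes (at 1 h against 0 h, -0.10 and -0.02). Within codes 44 to 54, 32 to 37 and 12 to 22 the shares lower were 7.94%, 5.56% and 19% of members. Those of named genes were 8.72%, 6.65% and 14.5%. After quantile scaling they were 4.37%, 3.17% and 11.1%, against 6.28%, 4.39% and 10.4%. The members' share was thus above that of named genes in codes 12 to 22 alone. The members' medians as deposited were -0.33, -0.25 and -0.37, against -0.16, -0.14 and -0.19. Zfp395 had a difference of -2.47 ± 0.37 from 1 h, where it had 104.5, 251.0 and 381.4, again as a description. Zfp467 fell by 1.91 ± 0.16 (adjusted p = 2.53e-07 in limma) against 249.1, 324.0 and 380.5 at 1 h. In both genes the 4 h arrays lay below all 1 h arrays.

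Zfp704 fell by 1.70 ± 0.34 against 1 h (adjusted p = 0.00127 in limma), where it had 277.3, 676.8 and 909.3. Zfp688 fell by 1.82 ± 0.46 (adjusted p = 0.00795 in limma), although 2 arrays at 1 h, with 27.1 and 144.3, lay within its 4 h range. Zfp800, with 673.0, 801.6 and 926.2 at 1 h, and Zfp655, with 878.3, 1028 and 1069, rose by 0.92 ± 0.20 and 0.72 ± 0.16 (adjusted p = 0.00242 and 0.00272 in limma). Zfp275 rose by 0.77 ± 0.24 (adjusted p = 0.0269 in limma), with overlapping groups, since it had 513.9, 580.4 and 1276 at 1 h. The call on Zfp275 was lost without 1 h replicate 3, 4, 5 or 6 (adjusted p = 0.0595, 0.0623, 0.0532 and 0.0647 in limma) or 4 h replicate 5 (adjusted p = 0.0594 in limma). Zfp472 differed from this pattern, with 260.5, 361.2 and 469.3 at 4 h, so that its level at 4 h was within 0.21 of its level at 1 h (adjusted p = 0.476 in limma).

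Within the ranges of array codes the 4 h difference had the same sign. The median over members was -0.53, -0.36 and -0.44 in codes 44 to 54, 32 to 37 and 12 to 22, against -0.20, -0.17 and -0.21 over named genes. The lower members numbered 66, 33 and 63 (26.2%, 13.1% and 25%), against 13.8%, 10% and 15.1% of named genes, and after quantile scaling they numbered 37, 16 and 41 (14.7%, 6.35% and 16.3%), against 10.3%, 7.29% and 11.8% of named genes. In codes 32 to 37 the members' share was then below that of named genes. Whether the 4 h response differed between ranges was tested directly, and 2 members passed (0.794%), against 1.13% of named genes and 0.837% of probe sets. Zfp1 had 109.5 and 158.7 at 4 h, against 151.5 and 187.8 at 0 h, in codes 44 to 54. It had 108.8 and 141.8, against 225.7 and 269.4, in codes 32 to 37, and 15.7 and 17.9, against 211.7 and 330.2, in codes 12 to 22. The 4 h differences were thus -0.32, -0.90 and -3.10 (adjusted p = 0.0157 for the difference between ranges in limma).

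Zfp704 had 156.5 and 209.8 at 4 h, against 894.2 and 976.9 at 0 h, in codes 44 to 54. In codes 32 to 37 it had 178.2 and 207.3 at 4 h, against 258.0 and 316.4 at 0 h, and in codes 12 to 22 it had 113.5 and 154.2, against 713.9 and 723.3. At 4 h all ranges lay within 113.5 to 209.8, and at 0 h codes 32 to 37 lay below the other ranges. The 4 h differences were -2.27, -0.54 and -2.31 (adjusted p = 0.0378 for the difference between ranges in limma). Both genes also passed this test after quantile scaling, where 0.972% of named genes did, and neither passed where genes of all levels were tested. The call on Zfp1 was lost without 0 h replicate 5 or 4 h replicate 5 (adjusted p = 0.0666 and 0.0515 in limma). That on Zfp704 was lost in 12 of 18 fits without 1 array, namely any 0 h replicate, 1 h replicate 1 or 2, or 4 h replicate 2, 3, 4 or 6 (adjusted p = 0.0538 to 0.187 in limma), and over the mean of its probe sets (adjusted p = 0.16 in limma).

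Levels of members also differed between the code ranges with time held fixed. In codes 44 to 54 against 12 to 22, 28 members were higher (11.1%) and 16 lower (6.35%), against 11% and 11.3% of named genes, and after quantile scaling 17 and 25 (6.75% and 9.92%), against 10.2% and 13.2%. In codes 32 to 37 against 12 to 22, 20 were higher (7.94%) and 22 lower (8.73%), against 11.7% and 8.97% of named genes, and after quantile scaling 17 and 26 (6.75% and 10.3%), against 11.3% and 9.79%. In codes 44 to 54 against 32 to 37, 19 were higher (7.54%) and 6 lower (2.38%), against 9.46% and 11.3% of named genes, and after quantile scaling 15 and 12 (5.95% and 4.76%), against 9.06% and 12.2%. These shares lay near or under those of named genes. The ranges share their arrays between comparisons. Markers of other cells moved with the ranges: 9 of 10 stroma markers were kept, with summed signals of 29920 to 43290 in codes 44 to 54, 7677 to 15010 in 32 to 37 and 3507 to 4951 in 12 to 22. For 8 of 12 neutrophil markers the sums were 989.7 to 2761, 1802 to 5265 and 3968 to 9527, and for 13 of 14 cell cycle genes they were 25840 to 38100, 58580 to 77550 and 34530 to 68990. Their part in the members' differences was not tested.

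Zfp9 differed most between ranges. It had 158.7, 192.6 and 249.6 in codes 44 to 54, 12.1, 67.5 and 107.5 in 32 to 37 and 6.85, 12.6 and 57.4 in 12 to 22, and lay above the array median on 6, 1 and 0 of 6 arrays. Codes 44 to 54 overlapped neither of the other ranges, and since Zfp9 passed the filter mainly through them, its differences of 2.72 ± 0.37 against 12 to 22 and 1.76 ± 0.37 against 32 to 37 are a description. Zfp507 had 197.3, 335.3 and 372.8 in codes 44 to 54, 31.4, 127.6 and 179.3 in 32 to 37 and 48.6, 65.5 and 78.8 in 12 to 22. It was higher in codes 44 to 54 than in 12 to 22 by 1.94 ± 0.26 (adjusted p = 6.14e-05 in limma) and than in 32 to 37 by 1.29 ± 0.26 (adjusted p = 0.00235 in limma). Zfp469, whose human counterpart is mutated in brittle cornea syndrome, had 244.8, 295.4 and 332.1 in codes 44 to 54, 76.4, 145.9 and 169.9 in 32 to 37 and 100.4, 140.5 and 184.5 in 12 to 22. It was higher by 1.03 ± 0.18 in codes 44 to 54 than in 32 to 37 (adjusted p = 7.87e-04 in limma). For these 3 genes codes 44 to 54, where the stroma markers were highest, stood above all other arrays. Zfp697 had 98.8, 117.3 and 141.6 in codes 44 to 54, against 19.6, 55.2 and 63.4 in 12 to 22, with no overlap. It lay above the array median on 4 and 0 of these arrays, so its difference of 1.10 ± 0.30 is a description too.

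Other members were highest in codes 32 to 37. Zfp52 had 3185, 5321 and 7220 there, against 1449, 1699 and 2087 in codes 12 to 22, with no overlap, and was higher by 1.498 ± 0.21 (adjusted p = 1.94e-04 in limma). It had 2041, 2957 and 3850 in codes 44 to 54, lower than in 32 to 37 by 0.80 ± 0.21 (adjusted p = 0.015 in limma). Zfp948 had 425.8, 671.7 and 855.7 in codes 32 to 37, against 126.8, 303.3 and 422.7 in 12 to 22, and was higher by 1.25 ± 0.24 (adjusted p = 0.00241 in limma). The median cell cycle sum was 31770 in codes 44 to 54, 68080 in codes 32 to 37 and 49530 in codes 12 to 22, and the arrays of codes 32 to 37 and 12 to 22 overlapped. Zfp821 had 189.9, 232.0 and 337.2 in codes 32 to 37, against 60.2, 123.4 and 164.4 in 12 to 22, a difference of 0.96 ± 0.22 (adjusted p = 0.00742 in limma). It was lower in codes 44 to 54 than in 32 to 37 by 0.74 ± 0.22 (adjusted p = 0.0305 in limma), and this call was lost without 1 h replicate 1 (adjusted p = 0.0796 in limma), without 4 h replicate 1 (0.0507) or without 0 h replicate 1, 2, 3 or 4 (0.0812, 0.0777, 0.0556 and 0.0524). Zfp101 had 150.0, 284.9 and 508.0 in codes 44 to 54, against 386.2, 627.5 and 825.6 in 32 to 37, with overlapping groups, and was lower by 0.99 ± 0.18 with time held fixed (adjusted p = 0.00139 in limma).

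A few members were highest in codes 12 to 22. Zfp395 was lower by 1.05 ± 0.27 in codes 32 to 37 and by 0.88 ± 0.27 in codes 44 to 54 than in 12 to 22 (adjusted p = 0.0141 and 0.0329 in limma). The second of these calls was lost in 7 fits without 1 array, namely 1 h replicate 1, 5 or 6 (adjusted p = 0.079, 0.0576 and 0.062 in limma), 0 h replicate 1 (0.0671) and 4 h replicate 3, 5 or 6 (0.0768, 0.0586 and 0.0645). Zfp810 was lower by 0.71 ± 0.17 in codes 44 to 54 than in 12 to 22 (adjusted p = 0.00724 in limma). Zfp28 had 72.9, 97.03 and 318.9 in codes 32 to 37, against 160.6, 296.1 and 356.3 in 12 to 22, with overlapping groups, and was lower by 0.95 ± 0.18 (adjusted p = 0.00239 in limma). Zfp458 had 19.4, 81.8 and 118.4 in codes 32 to 37, against 107.2, 145.5 and 195.0 in 12 to 22, and was lower by 0.93 ± 0.24 (adjusted p = 0.0137 in limma, 0.1 over the mean of its probe sets). Zfp593, whose yeast counterpart acts in export of ribosomal subunits, was lower by 0.78 ± 0.16 in codes 44 to 54 than in 12 to 22 (adjusted p = 0.00266 in limma), and without probe sets that can bind several genes its difference was 0.24 (adjusted p = 0.702 in limma).

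**Figure D4:**
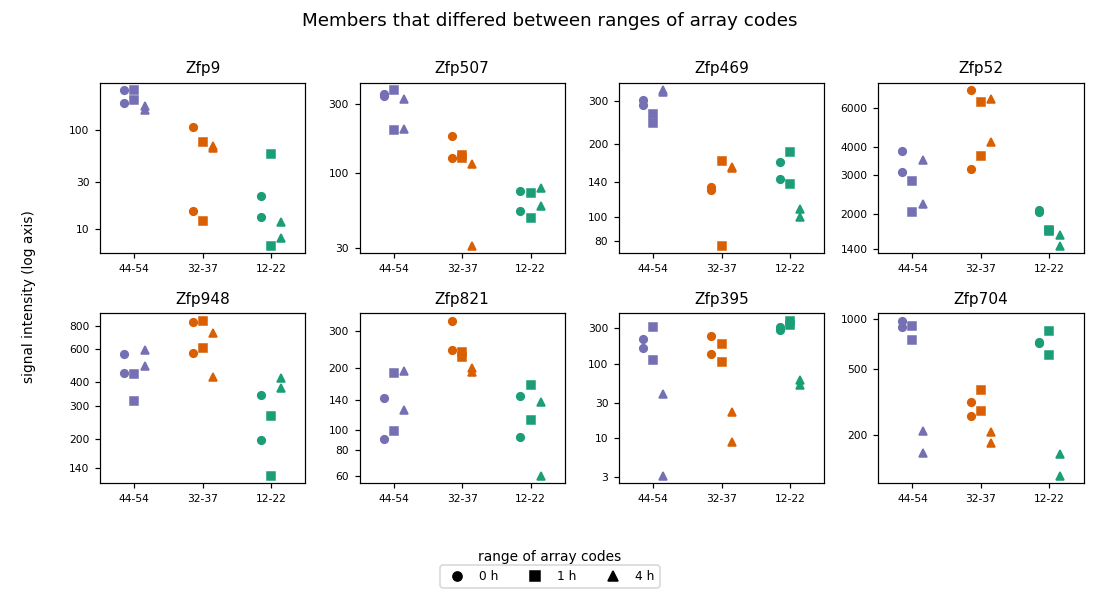
Signal on each of 18 arrays (log axes, 1 panel per gene) by range of array codes for 8 members that differed between ranges in level or in 4 h response, with marker shapes for time. Zfp9 lies at 158.7 to 249.6 in codes 44 to 54 and 6.85 to 57.4 in codes 12 to 22, and Zfp704 at 0 h lies at 894.2 and 976.9 in codes 44 to 54 but 258.0 and 316.4 in codes 32 to 37.

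Position in the genome was taken from the gene order of RefSeq. Of the members, 130 had another Zfp gene as a direct protein-coding neighbour and 122 had none. Of the 130, 61 were lower at 4 h (46.9%) and 3 higher (2.31%), with a median of -0.49. Of the 122, 47 were lower (38.5%) and 10 higher (8.2%), with a median of -0.34. After quantile scaling 36 of the 130 (27.7%) and 35 of the 122 (28.7%) were lower, so the difference in the share of lower genes was in the other direction, while 3 and 13 were higher. Over all named genes 23.9% were lower and 11.5% higher as deposited, and 17.4% and 12.8% after quantile scaling. The 130 were also dimmer, with a median of the mean log2 value of 7.78, against 8.36 for the 122. Level was not held fixed here, and the 2 sets were not compared by a test.

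A run of 10 protein-coding genes on chromosome 17, chosen after its values were seen, held 8 members and both Zfp811 and Zfp472. In gene order the differences of 4 h minus 0 h were 0.03 for Zfp871, 3.44 for Zfp811, -0.55 for Zfp799, -0.29 for Zfp870, -1.11 for Zfp472, -0.48 for Zfp952, -1.55 for Zfp763 and -0.82 for Zfp563. Of these 4 were lower and 1 higher, and 3 were lower after quantile scaling, where Zfp952 was at -0.19 (adjusted p = 0.427 in limma). Zfp871 had 1729, 2001 and 2917 at 4 h, against 1886, 1942 and 2346 at 0 h, with overlapping groups. Its direct neighbour in the list of members, Zfp811, thus lay between a bright gene that was not called and Zfp799, which was at 142.2 to 381.9 at 4 h and 224.0 to 616.7 at 0 h and was not called either.

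**Figure D5:**
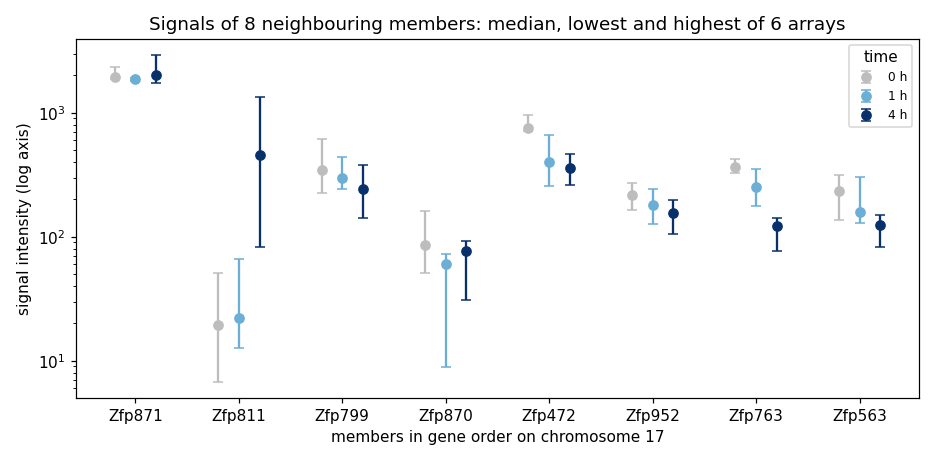
Signal (log axis) of the 8 members in a run of 10 protein-coding genes on chromosome 17, in gene order, with the median of 6 arrays as a point and the lowest and highest as bars, at 0 h, 1 h and 4 h. Zfp811 reaches 82.5 to 1348 at 4 h and stays at 6.78 to 65.7 before, while Zfp763 is at 76.8 to 141.0 at 4 h and 324.0 to 420.2 at 0 h.

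A list of 21 genes, called corepressors here, held partners of KRAB zinc finger proteins and other heterochromatin genes, and 20 were kept. At 4 h 4 were lower (20%) and 0 higher, against 23.9% lower and 11.5% higher over named genes. The median was -0.25, against -0.19 over named genes. An unadjusted p under 0.05 in limma was found for 8 of the 20, against 5248 of 11733 named genes. Atf7ip, which binds and stabilises SETDB1, had 227.4, 441.5 and 586.6 at 4 h, against 730.1, 836.0 and 922.1 at 0 h, and fell by 1.03 ± 0.18 (adjusted p = 3.54e-04 in limma). Setdb1, the methyltransferase itself, had 578.1, 632.3 and 695.8 at 4 h, against 769.6, 816.5 and 968.1 at 0 h, and fell by 0.40 ± 0.10 (adjusted p = 0.00567 in limma). The groups overlapped in neither gene. Cbx1, a heterochromatin protein, fell by 0.61 ± 0.13 and Chd3, a nucleosome remodeller, by 0.42 ± 0.13 (adjusted p = 0.00119 and 0.0163 in limma), and after quantile scaling Chd3 had an adjusted p of 0.287 in limma. The call on Cbx1 was lost over the mean of its probe sets (adjusted p = 0.376 in limma). When arrays were centred on their medians, the calls on Cbx1, Chd3 and Setdb1 were lost (adjusted p = 0.0558, 0.404 and 0.455 in limma). That on Atf7ip was kept. Trim28, the direct partner of KRAB, averaged 2883 ± 586 at 4 h and 3447 ± 809 at 0 h (SD, n = 6 each), a difference of -0.25 (adjusted p = 0.343 in limma).

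Related zinc finger genes outside the Zfp names were counted in the same fit. Of 47 Zbtb, Zkscan and Zscan genes, which join zinc fingers to a BTB or SCAN domain, 18 were lower (38.3%) and 4 higher (8.51%), with a median of -0.35, against 23.9% and 11.5% of named genes and their median of -0.19. After quantile scaling 14 were lower (29.8%) and 4 higher, with a median of -0.08, against 17.4% and 12.8% of named genes and their median of -0.07. Among them Zbtb16, a BTB zinc finger factor of innate-like lymphocytes, averaged 41.9 ± 28.1 at 4 h and 178.4 ± 56.0 at 0 h (SD, n = 6 each) and fell by 1.87 (adjusted p = 5.92e-04 in limma). Zbtb21 averaged 917.4 at 4 h and 410.5 at 0 h and rose by 1.14 (adjusted p = 2.0e-05 in limma). No test of the Zfp members against this group was run.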

How the data were processed

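Expression was measured on 18 Affymetrix arrays of mouse immune cells, 6 at each of 3 times, grouped by the time in each label. Replicates were numbered in accession order, so numbers do not pair arrays. The authors deposited a signal intensity per probe set and array on a linear scale. Per the submitters' processing notes MAS5 and GCOS were used, with versions and settings not given in the sources used here. For 18 of 18 arrays the best residual match at another time was of the same code range.

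The table holds 45101 probe sets, 64 of them controls. In the platform annotation 34945 have 1 gene symbol and 932 have several. By gene identifier 34741 were matched to RefSeq (GRCm38.p6), used for names, gene order and promoters. The filter on the array median kept 25804 probe sets, controls left out. R 4.3.3 and limma 3.58.1 fitted log2(signal + 16) with a mean per time over 18 arrays, an additive term for time in range comparisons, and a mean per time and range for the response between ranges. The fit was tested on simulated data. Alternatives were quantile scaling, median centring, pseudocounts of 1 and 64, a minimum of 9 arrays, no filter, the mean of a gene's probe sets, no probe sets ending in _s_ or _x_, the code range block, no time block, and leaving out each array.

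The genes named were the 8 largest falls and rises at 4 h past the threshold under both scalings, up to 5 each way at 1 h, 4 each way between 1 h and 4 h, 3 each way per range comparison, the 3 brightest members, up to 3 in the test between ranges, and up to 4 corepressors. The members and lists were chosen with earlier results of these data known. Protein features were not computed here.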

Additional observations from a re-analysis of the deposited data

Results flagged for a closer look

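In 105 groups of 6 arrays of the genes named above, the gap of the outermost array to the nearest of the others was examined. Its share of the range was taken on log2(signal + 16) and set against Dixon's critical value of 0.625. The signals below are on the linear scale, where the shares differ. Chance passes about 1 in 20 groups, and 7 passed here. Zfp157 had 592.0 in 0 h replicate 1 and 467.7 in the next array (share 0.729). Zfp207 had 1860 in 4 h replicate 2, with 3412 next (0.741), and 1794 in 1 h replicate 3, with 3388 next (0.757), both arrays of codes 32 to 37. Zfp688 had 27.1 in 1 h replicate 1, with 144.3 next (0.668). Zfp655 had 878.3 in 1 h replicate 2, with 1022 next (0.772), and 793.9 in 0 h replicate 6, with 972.9 next (0.71). Zfp28 had 223.5 in 0 h replicate 2, with 312.1 next (0.731).

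The 4 h response of Zfp1 and Zfp704 differed between the ranges of array codes (adjusted p = 0.0157 and 0.0378 in limma). The 2 genes were 0.794% of members, against 1.13% of named genes. Neither passed without the filter (adjusted p = 0.051 and 0.115 in limma). In codes 12 to 22 the 4 h signals of Zfp1, 15.7 and 17.9, lay below the array medians. Zfp1 was at -0.32 in codes 44 to 54 and -3.10 in 12 to 22, and Zfp704 at -2.27 in codes 44 to 54 and -0.54 in 32 to 37. In 18 fits without 1 array the call was lost in 2 for Zfp1 and in 12 for Zfp704 (adjusted p up to 0.0666 and 0.187 in limma).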

How the results depend on the processing

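No paired analysis was possible because the labels carry no replicate numbers; the code range block stood in for it and gave 1 higher member at 1 h. The 4 h minus 0 h count of lower members was 71 after quantile scaling and 62 after median centring, and other settings kept it within 1.5 times of 108. Quantile scaling gave 1 lower member at 1 h, 12 higher and 40 lower at 4 h against 1 h, 17 and 25 in codes 44 to 54 against 12 to 22, and 12 lower in 44 to 54 against 32 to 37. Median centring gave 1 lower at 1 h, 16 higher and 32 lower at 4 h against 1 h, 15 and 25 in codes 44 to 54 against 12 to 22, and 11 and 13 in 44 to 54 against 32 to 37. A pseudocount of 1 gave 1 lower at 1 h. Without the filter (304 genes) there were 0 lower at 1 h, 3 higher at 4 h against 1 h, 14 and 10 in codes 44 to 54 against 12 to 22, 2 lower in 44 to 54 against 32 to 37, and 0 responses differing between ranges. The mean of probe sets gave 9 lower in codes 44 to 54 against 12 to 22 and 1 response differing between ranges. Without the time block the counts were 14 and 7 in codes 44 to 54 against 12 to 22, 9 and 6 in 32 to 37 against 12 to 22, and 7 and 2 in 44 to 54 against 32 to 37.

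Leaving out 1 array gave 0 to 2 higher and 0 to 3 lower at 1 h, 10 to 14 higher and 95 to 113 lower at 4 h against 0 h, 3 to 8 and 55 to 70 at 4 h against 1 h, 20 to 30 and 10 to 19 in codes 44 to 54 against 12 to 22, 16 to 24 and 18 to 24 in 32 to 37 against 12 to 22, 15 to 22 and 2 to 8 in 44 to 54 against 32 to 37, and 0 to 2 responses differing between ranges. In these last fits the lone array left in a cell is assumed to vary like the others. The sign turned for Zfp593 without probe sets ending in _s_ or _x_ (0.24), for Zfp622 with median centring (0.15), and for Zfp207 with median centring (0.094) and without 4 h replicate 2, the leave-one-out values of Zfp207 running from -0.23 to 0.0094. The cause of these changes was not tested. The lack of a background flag limits statements on dim members.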
